A study of Mus musculus with 4 samples.

Results

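The 10 genes described here form the core of the circadian clock: Per1, Per2, Per3, Cry1, Cry2, Clock, Arntl (also called Bmal1), Nr1d1, Nr1d2 and Dbp. They were chosen by function, with earlier results of these same summit lists in view, out of 21887 protein-coding genes on the nuclear chromosomes. A summit, the base at which an ATAC-seq peak is highest, was assigned to a gene when it lay in the gene body or within 10000 bp of it. Which summits belong to a gene is therefore a description, and no test is made of it.

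ATAC-seq, in which the Tn5 transposase cuts open chromatin and tags it, was run on haematopoietic stem cells (HSCs) of male mice at 8 weeks of age, C57BL/6 by strain and wild type. The cells came from bone marrow, were depleted of lineage-positive cells, were sorted as LSK and negative for CD34, Flt3 and CD48 but positive for Slam1, and were then separated by surface CD93. Each fraction, CD93-positive and CD93-negative, has 2 libraries, with no treatment named in the labels, which also do not say whether they came from different mice, so the spread between them may be technical. The 4 lists differ greatly in length, from 21 summits (CD93-positive replicate 1) and 711 (CD93-positive replicate 2) to 2755 (CD93-negative replicate 2) and 7989 (CD93-negative replicate 1), and read depth is unknown. Of 15 HSC marker genes, 4 had a summit in their window in CD93-negative replicate 1 (among them Tal1), and none had one in the other lists, while Procr, Mecom, Slamf1 and Kit had none in any list. None of 5 endothelial, 3 T-cell or 4 myeloid marker genes had a summit in any library, and 1 of 4 B-cell genes (Cd79a) and 1 of 3 erythroid genes (Klf1) had one, in CD93-negative replicate 1. Of the 4 genes of the sort gate that were looked up, Cd93, Cd34 and Cd48 had no summit in their windows. Flt3, whose surface product the sorted cells lacked, had one in CD93-negative replicate 1 (score 10.8), inside the gene and 147 bp downstream of its transcript start. The same window held a summit for 43.5% of all protein-coding genes in CD93-negative replicate 1 and 18.5% in CD93-negative replicate 2. It did so for 4.62% in CD93-positive replicate 2 and 0.0411% in CD93-positive replicate 1. In CD93-negative replicate 1 each marker group's share was below that of all genes, so the marker counts say little on cell type.

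The mammalian clock is a feedback loop of transcription. CLOCK and ARNTL bind E-boxes and switch on the Per and Cry genes, whose protein products return to the nucleus and repress CLOCK and ARNTL. In a second loop the nuclear receptors NR1D1 and NR1D2 (REV-ERB alpha and beta) repress Arntl by binding ROR elements, and DBP carries the rhythm to output genes through D-boxes. In bone marrow, the traffic of HSCs between marrow and blood is known to follow the time of day. The time of day at which these mice were used is not given in the sources used here.

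Summits at Per1, Per3, Cry1, Cry2 and Arntl lay within promoter windows that hold clock response elements. The stretches at Per3, Cry1 and Cry2 are shown because 3 of the 5 clock sites found in more than 1 library fall on them. The sequences are RefSeq's, build GRCm38.p6, the assembly behind mm10. Each is written 5′ to 3′ on the strand of the gene and ends where the annotated gene begins. Capitals mark a match to the E-box CACGTG, to the E-prime box CACGTT (which reads AACGTG on the opposite strand) or to a D-box (TTATGTAA, TTACGTAA or TTATGCAA).
Cry1, chr10:85185055-85185304, minus strand: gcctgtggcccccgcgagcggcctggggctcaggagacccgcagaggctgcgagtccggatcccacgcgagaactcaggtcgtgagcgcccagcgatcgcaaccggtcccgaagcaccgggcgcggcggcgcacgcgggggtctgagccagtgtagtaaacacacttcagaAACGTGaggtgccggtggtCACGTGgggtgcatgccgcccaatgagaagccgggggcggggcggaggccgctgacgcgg
Cry2, chr2:92434086-92434319, minus strand: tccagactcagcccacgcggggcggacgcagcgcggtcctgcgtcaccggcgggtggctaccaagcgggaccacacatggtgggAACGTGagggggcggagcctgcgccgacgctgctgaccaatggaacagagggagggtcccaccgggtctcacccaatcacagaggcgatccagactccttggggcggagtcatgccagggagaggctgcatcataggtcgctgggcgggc
Per3, chr4:151044708-151044915, minus strand: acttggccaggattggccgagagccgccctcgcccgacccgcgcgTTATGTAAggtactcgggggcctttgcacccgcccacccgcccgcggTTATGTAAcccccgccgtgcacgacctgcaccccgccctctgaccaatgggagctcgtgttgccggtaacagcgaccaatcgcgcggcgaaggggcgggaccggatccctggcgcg

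For Per1 and Arntl the transcript starts of the promoter table lie inside the annotated gene, so only the 30 bases around each match are shown. The Arntl match is to a ROR element (TAGGTCA or TGGGTCA), the kind of site through which the REV-ERB receptors act.
Per1 E-box, chr11:69098771-69098800, plus strand: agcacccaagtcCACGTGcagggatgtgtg
Per1 D-box, chr11:69098914-69098943, plus strand: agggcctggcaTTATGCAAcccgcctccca
Arntl ROR element, chr7:113207529-113207558, plus strand: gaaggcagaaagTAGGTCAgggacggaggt

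The Per and Cry genes were the most widely listed part of the clock. All 5 had a summit in both CD93-negative libraries, and 3 of the 5 (Per1, Per3 and Cry1) also had one in CD93-positive replicate 2. In CD93-negative replicate 1 the summit counted for Per3 was nearer to its neighbour Gm38529. The other 5 genes were listed in CD93-negative replicate 1 alone, where 4 of the 5 had a summit, and Clock had none anywhere. In all, CD93-positive replicate 1 listed 0 of the 10 genes and CD93-positive replicate 2 listed 3, against 9 in CD93-negative replicate 1 and 5 in CD93-negative replicate 2. The same window held a summit for 0.0411%, 4.62%, 43.5% and 18.5% of all protein-coding genes in these libraries, in that order. In the 3 longer lists the clock genes' share (30.0%, 90.0% and 50.0%) was thus above that of all genes, as a description of genes picked with these results known. The clock genes are also longer, with a median of 39213 bp against 17169 bp, which widens their windows, and the part of length in these counts was not tested.

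By group, the CD93-negative libraries listed 7 ± 2.83 (SD, n = 2) clock genes and the CD93-positive libraries 1.5 ± 2.12 (SD, n = 2). The counts did not overlap between the groups, but they followed the length of the lists. With the 711 highest-scoring summits of each longer list, CD93-negative replicate 1 listed 0 of the 10 (against 4.79% of all genes), CD93-negative replicate 2 listed Per1 and Per2 (against 5.05%), and CD93-positive replicate 2 listed its 3. The difference between the group means, 5.5 genes, was then -0.5 with CD93-positive replicate 1 kept at its 21 summits, and -2 with that library left out, so that each list held 711. More clock genes listed in CD93-negative HSCs therefore cannot be told apart from longer lists, nor can fewer cells with an open site from less access per cell. With 2755 summits, CD93-negative replicate 1 listed 6 genes (against 18.4% of all genes), namely the 5 Per and Cry genes of CD93-negative replicate 2 and Nr1d1.

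**Figure D1:**
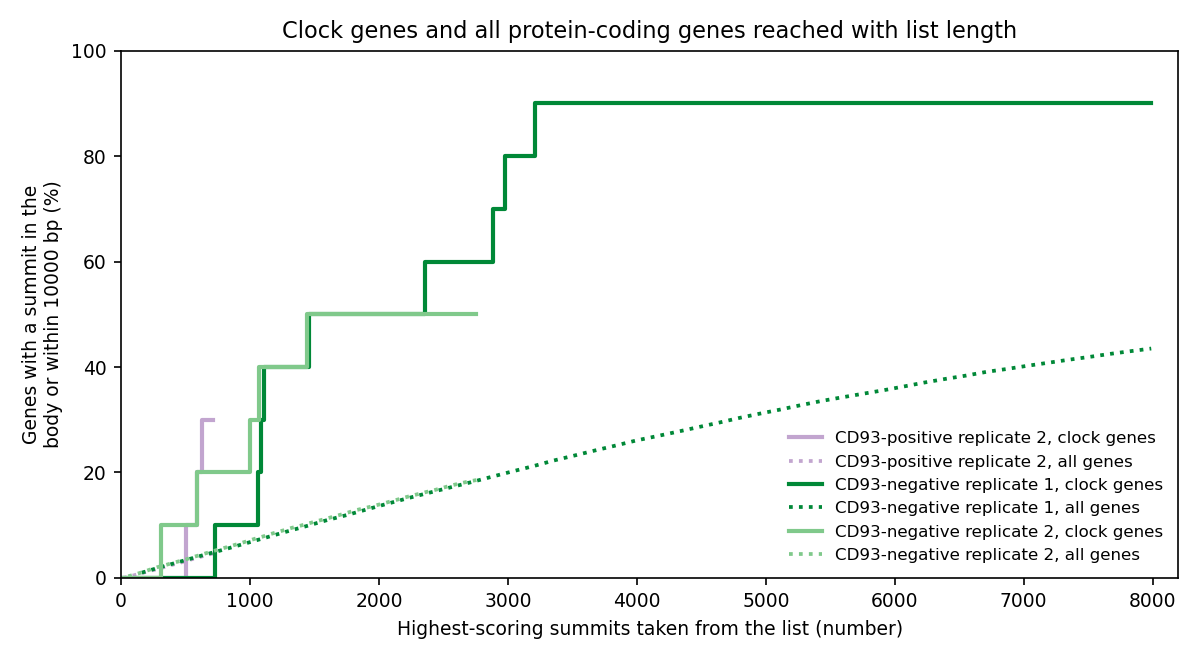
Share of the 10 clock genes (solid steps) and of all protein-coding genes (dotted) with a summit in the gene body or within 10000 bp, in percent, as each list is read from its highest score downward; the 21-summit list of CD93-positive replicate 1 reaches no clock gene and is not drawn. The dotted curves lie on each other, and the solid steps of both CD93-negative libraries pass through 5 genes, or 50.0%, before 2755 summits.

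Per1 (gene ID 18626, chromosome 11, 69095108 to 69109965) encodes a PERIOD repressor, one of the genes that light and stress hormones induce. Its main site lay just outside the annotated start of the gene, with a score of 4.96 in CD93-positive replicate 2, 48.0 in CD93-negative replicate 1 and 17.5 in CD93-negative replicate 2, and no summit in CD93-positive replicate 1. The summits lay 11, 59 and 93 bp outside the gene, at 69095097, 69095049 and 69095015, so that they spanned 82 bp. The score, deposited by the authors, is a −log10 p or q value against each library's own background and is not scaled between libraries, and a percent rank depends on how far down a list reaches, so both are read within a list and neither gives an order between libraries. Per1 stood at rank 1065 of 7989 (13.3% from the top) and 308 of 2755 (11.2%) in the CD93-negative lists, and at 624 of 711 (87.8%) in CD93-positive replicate 2. The place near the end of the CD93-positive list is therefore not read as a weaker site. By absolute rank, 624 comes before 1065 but after 308, which gives no order of the site between libraries either. Shortened to 711 summits, CD93-negative replicate 1 did not hold Per1, and CD93-negative replicate 2 did. CD93-negative replicate 1 alone also listed a summit at 69098821 (score 31.3), inside the gene and 128 bp upstream of a transcript start. That summit lay 33 bp from the E-box and 104 bp from the D-box shown for Per1. A further summit of this library, 6614 bp outside Per1, lay 34 bp from an end of Vamp2, a synaptic vesicle SNARE gene, and belongs to that neighbour by position (score 8.60).

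Per2 (gene ID 18627, chromosome 1, 91415977 to 91459351) encodes the PERIOD repressor whose loss shortens and then abolishes behavioural rhythms in mice. Its site scored 55.3 in CD93-negative replicate 1 and 14.4 in CD93-negative replicate 2 and was in neither CD93-positive list. The summits lay 113 and 141 bp outside the gene, beyond its boundary at the higher coordinate, at 91459464 and 91459492. Its score was the highest of any clock gene in CD93-negative replicate 1 (rank 730, 9.14% from the top) and second to Per1 in CD93-negative replicate 2 (rank 587, 21.3%). The nearest summit of CD93-positive replicate 2 was 81084 bp from Per2, at Asb1. A second summit of CD93-negative replicate 1, 2657 bp outside Per2, lay 718 bp from an end of Hes6, a transcriptional repressor gene of the HES family (score 33.4).

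Per3 (gene ID 18628, chromosome 4, 150997018 to 151044707) encodes the third PERIOD protein, whose loss affects the clock least. Its single site scored 6.37 in CD93-positive replicate 2, 47.7 in CD93-negative replicate 1 and 11.7 in CD93-negative replicate 2. Those summits stood at ranks 501 of 711, 1085 of 7989 and 1001 of 2755 of their lists. The neighbour Gm38529, a predicted gene that begins at 151044853, shares this site. The summits of CD93-positive replicate 2 and CD93-negative replicate 2 lay between the genes, 33 and 45 bp outside Per3. The summit of CD93-negative replicate 1 lay 188 bp outside Per3 and 42 bp inside Gm38529. It was 25 bp from one of the D-boxes shown for Per3, and the other summits were 76 and 64 bp from the second of them.

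Cry1 (gene ID 12952, chromosome 10, 85131700 to 85185054) encodes a CRYPTOCHROME, the strong repressor of CLOCK and ARNTL. Its site scored 5.34 in CD93-positive replicate 2, 32.0 in CD93-negative replicate 1 and 9.53 in CD93-negative replicate 2, and these stood 83.1%, 29.5% and 52.2% from the top of their own lists. In each of the CD93-negative lists it was the lowest of the 5 Per and Cry genes. The summits lay 109, 53 and 104 bp upstream of the transcript start. Those positions are 49, 2 and 44 bp from the E-box and 30, 21 and 25 bp from the E-prime box in the sequence shown for Cry1. CD93-negative replicate 1 also listed a summit 3611 bp outside Cry1, which lay 62 bp from an end of Mterf2, a mitochondrial transcription termination factor gene (score 20.7).

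Cry2 (gene ID 12953, chromosome 2, 92403646 to 92434085) encodes the other CRYPTOCHROME. Its site scored 47.3 in CD93-negative replicate 1 and 11.4 in CD93-negative replicate 2, ranking 13.9% and 38.7% from the top, and it was in neither CD93-positive list. The summits lay 106 and 34 bp upstream of the transcript start, and 55 and 127 bp from the E-prime box. Cry2 stood above Cry1 in both CD93-negative lists, yet Cry1 was listed in CD93-positive replicate 2 and Cry2 was not. The nearest summit of that library was 1658340 bp away, at Fnbp4.

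**Figure D2:**
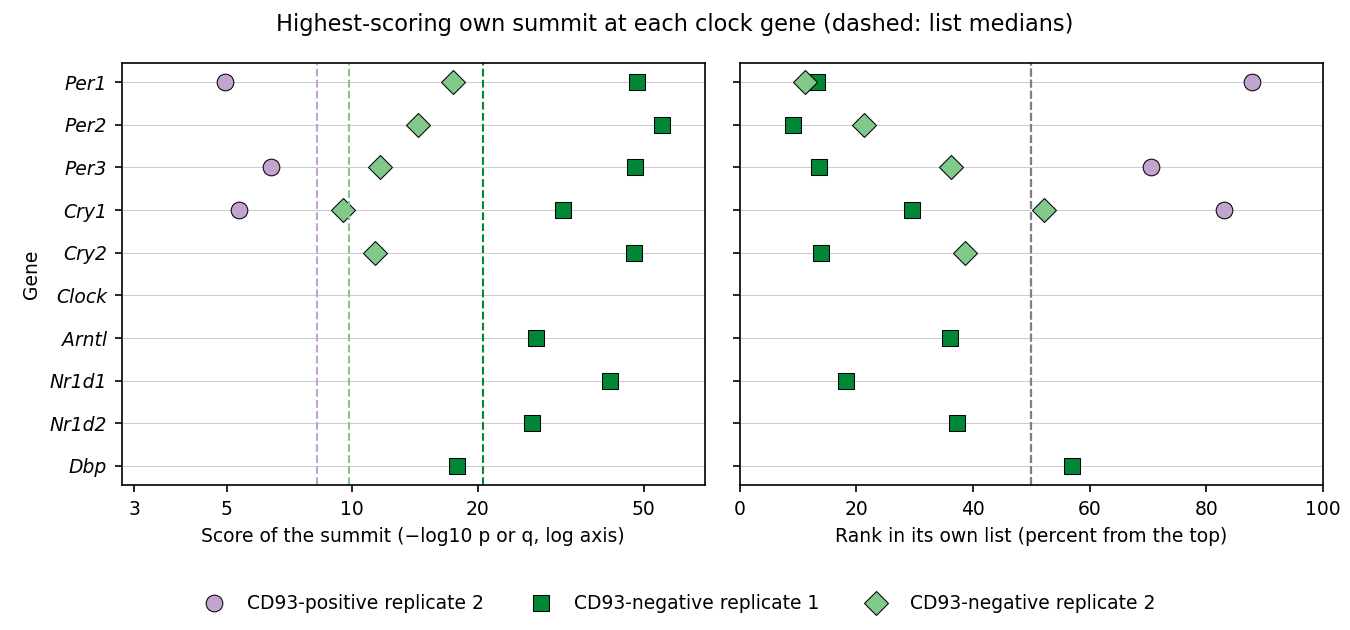
Highest-scoring summit of its own site at each clock gene in the 3 longer libraries, as the score on a log axis (left, −log10 p or q, dashed lines at each list's median) and as the rank within the list in percent from the top (right, dashed line at 50). All 3 summits of CD93-positive replicate 2 lie in the lower part of their own list of 711, at 70.5% to 87.8%, which does not compare with percentages of longer lists, and Clock has no point.

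Of the 2 activator genes, only Arntl was listed, in CD93-negative replicate 1 alone. Clock (gene ID 12753, chromosome 5, 76209868 to 76305603) encodes the activator that pairs with ARNTL and acetylates histones, and it had no summit in its body or within 10000 bp in any library. The summit nearest to it lay 25984 bp outside the gene in CD93-negative replicate 1, at Tmem165, and 69270 and 69343 bp outside in CD93-negative replicate 2 and CD93-positive replicate 2, at Srd5a3. Of the 3 Clock windows in the promoter table, 2 were rich in G and C (76.3% and 76.7%, with 42 and 46 CpG) and the third was not (47.0%, 9 CpG). None of the 3 held a motif that was searched. The lists hold only summits past the caller's threshold, so a gene without one is not shown to be closed.

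Arntl (gene ID 11865, chromosome 7, 113178471 to 113314126) encodes the partner of CLOCK, and its loss alone stops behavioural rhythms. CD93-negative replicate 1 listed 2 summits there, and the other libraries none. The stronger, at 113207276 (score 27.6, 36.1% from the top), lay 28805 bp inside the annotated gene and 189 bp upstream of a transcript start, 265 bp from the ROR element shown for Arntl. The weaker, at 113197479 (score 3.26), was 9986 bp upstream of that start and ranked among the lowest of the list, whose minimum was 3.03.

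The REV-ERB genes and Dbp were also listed in CD93-negative replicate 1 alone. Nr1d1 (gene ID 217166, chromosome 11, 98767932 to 98775377), which encodes REV-ERB alpha, had a summit at 98773984 (score 41.5, 18.2% from the top). It lay inside the gene, 1393 bp downstream of the transcript start, and so away from the E-prime box 28 bases upstream of that start. Nr1d2 (gene ID 353187, chromosome 14, 18204056 to 18239106), which encodes REV-ERB beta, had a summit at 18238590 (score 26.9, 37.3% from the top), 516 bp downstream of its start. Of the clock genes in this library, Nr1d1 thus ranked above Cry1, and Nr1d2 just below Arntl. Dbp (gene ID 13170, chromosome 7, 45705100 to 45710203), an output gene that encodes a PAR bZIP factor, had a summit at 45704970, 130 bp outside the gene and 283 bp from an end of its neighbour Car11, a carbonic anhydrase family gene. Its score of 17.8 lay below the median of the list, 20.6, and was the lowest of the clock genes' own sites by their best summit. Summits 5077 and 7826 bp beyond the far end of Dbp lay 187 bp from Rpl18, a ribosomal protein gene, and 27 bp from Sphk2, a sphingosine kinase gene, and scored 19.1 and 25.3.

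**Figure D3:**
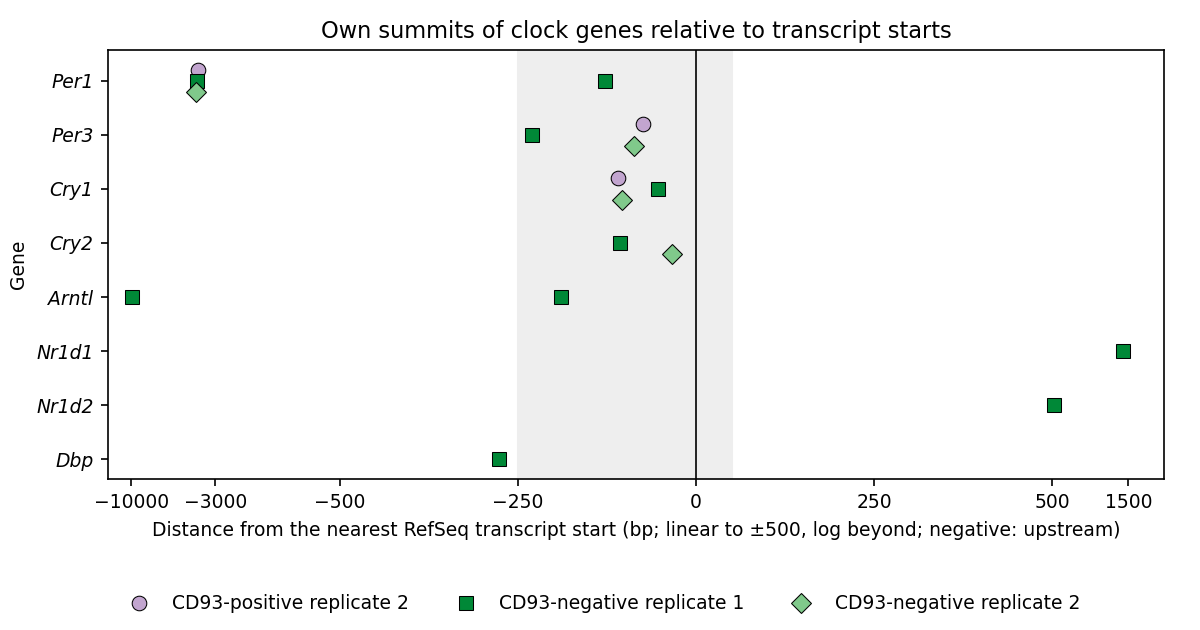
Distance of each own summit from the nearest RefSeq transcript start, in bp (linear to 500 on either side and logarithmic beyond; negative is upstream), for 8 clock genes by library; the grey band is the promoter window from 250 bp before to 50 bp after the start. The summits of Per3, Cry1 and Cry2 all lie in the band, while those of Nr1d1 and Nr1d2 lie downstream, at 1393 and 516 bp.

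By position, the 24 summits at clock genes formed 16 sites when those within 250 bp were joined. Of the 16 sites, 3 were in 3 libraries (Per1, Per3 and Cry1), 2 in 2 libraries (Per2 and Cry2) and 11 in CD93-negative replicate 1 alone. At 5 of these 11 the nearest gene was a neighbour: Vamp2, Hes6, Mterf2, Rpl18 and Sphk2. With CD93-negative replicate 1 left out, and equally with CD93-negative replicate 2 left out, the number of sites in at least 2 libraries fell from 5 to 3. The farthest summit inside the 10000 bp limit was the one 7826 bp from Dbp, and the nearest outside it was 13234 bp from Per3, in CD93-negative replicate 2, 12 bp from an end of Vamp3 (score 10.6). For all protein-coding genes, 4.11% were listed in CD93-positive replicate 2 and both CD93-negative libraries, 14.2% in both CD93-negative libraries only, 24.7% in CD93-negative replicate 1 only and 56.3% in none. The clock genes numbered 3, 2, 4 and 1 of 10 in these classes.

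Within the promoter windows, 9 of the 10 genes had an entry, all but Per2, with 13 windows of 300 bp in all. A summit fell inside a window at Per3 and Cry1 in CD93-positive replicate 2, at Per3, Cry1 and Cry2 in CD93-negative replicate 2, and at these 3 and Per1 and Arntl in CD93-negative replicate 1. The same was true of 2.49%, 9.98% and 27.1% of the 17492 protein-coding genes with an entry. The E-box CACGTG was found in 2 of the 13 clock windows (at Per1 and Cry1) and in 7.15% of all 32817 windows of the table. The E-prime box was found in 3 of the 13 (at Cry1, Cry2 and Nr1d1), against 4.69% of all windows. A D-box was found in 2 (at Per1 and Per3), against 1.78%, and a ROR element in 1 (at Arntl), against 6.46%. The cAMP response element TGACGTCA was found in none, against 1.79%. All were searched on both strands and no matches overlapped in the clock windows. The clock windows were richer in CpG than most, with a median of 21 against 7 and a median GC content of 64.7% against 52.7%. A match describes the letters only and is not a binding site.

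The rest of the pathway was listed at smaller shares than the core in the 3 longer lists taken whole. Of 24 other clock genes, none had a summit in CD93-positive replicate 1 and 2 had one in CD93-positive replicate 2 (8.33% of them), while 17 (70.8%) had one in CD93-negative replicate 1 and 6 (25.0%) in CD93-negative replicate 2. Among the 17, Npas2 and Rora were counted only through a summit nearer to a neighbour, 13 bp from an end of Rpl31 and 111 bp from an end of Ice2. The shares of all protein-coding genes in these 3 longer lists were 4.62%, 43.5% and 18.5%. By group, the number of the 24 genes listed was 11.5 ± 7.78 (SD, n = 2) in CD93-negative and 1 ± 1.41 (SD, n = 2) in CD93-positive libraries. With 711 summits, 2 (8.33%) were listed in CD93-positive replicate 2 and 2 in CD93-negative replicate 1, against 4.62% and 4.79% of all genes. CD93-negative replicate 2 then listed 1 (4.17%), below the 5.05% of all genes. With 2755 summits, CD93-negative replicate 1 listed 5 (20.8%), near the 18.4% of all genes. Genes without a summit in any library included Arntl2, Rorb, Hlf, Csnk1e and Bhlhe41.

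Gsk3b, a kinase that phosphorylates several clock proteins, was listed in 3 libraries. It scored 12.7 in CD93-positive replicate 2 (17.3% from the top), 57.2 in CD93-negative replicate 1 (8.19%) and 19.8 in CD93-negative replicate 2 (6.32%). Within the list of CD93-positive replicate 2, Gsk3b thus stood above Per1, Per3 and Cry1. Tef, a PAR bZIP factor related to Dbp, was listed in the same 3 libraries, with scores of 7.11, 41.8 and 10.7 at its second transcript start. CD93-negative replicate 1 also listed a summit at the first start of Tef (score 22.0).

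The other 4 genes listed in more than 1 library were in both CD93-negative lists only. Sirt1, a deacetylase that acts on PER2 and ARNTL, scored 67.7 and 10.9 in CD93-negative replicates 1 and 2. Csnk1d, the casein kinase that marks PER proteins for turnover, scored 25.8 and 3.38, the latter near the bottom of its list (98.9% from the top). Ciart, a repressor of CLOCK and ARNTL, scored 23.6 and 5.33. Timeless scored 25.7 and 10.4 at a site 156 and 158 bp inside the gene and 407 and 409 bp from an end of Mip, its neighbour.

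**Figure D4:**
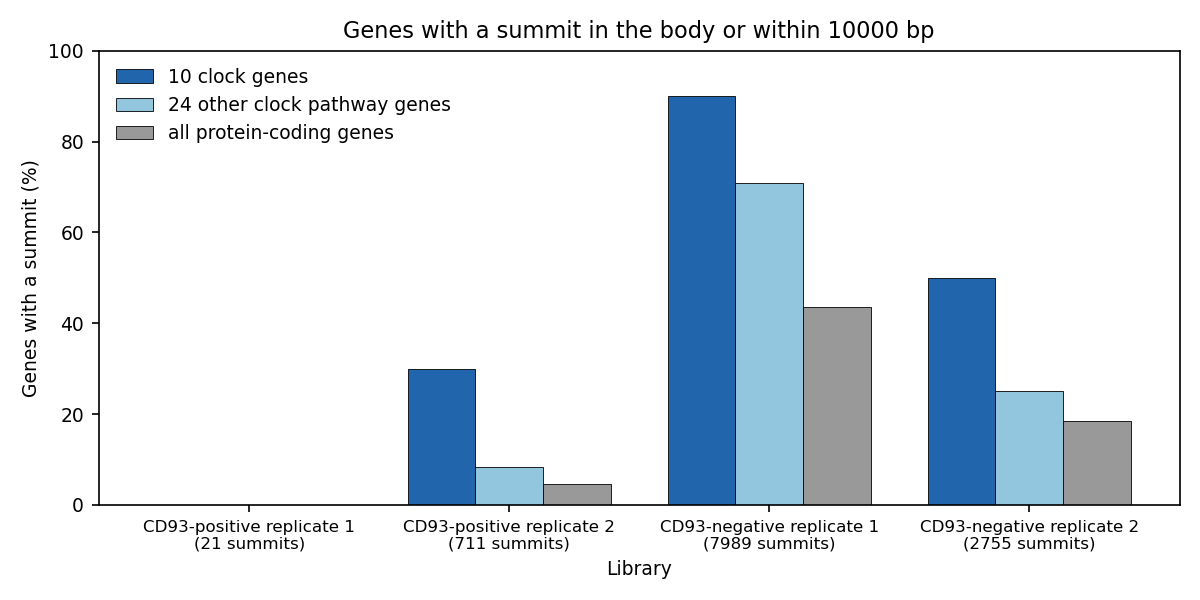
Percent of the 10 clock genes, of 24 other clock pathway genes and of all protein-coding genes with a summit in the gene body or within 10000 bp, in each library, with the number of summits in its list under the name. In CD93-negative replicate 2 the bars stand at 50.0%, 25.0% and 18.5%, and in CD93-positive replicate 1 the clock bars are at 0.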

How the data were processed

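The data were 4 ATAC-seq libraries of sorted mouse HSCs, 2 CD93-positive and 2 CD93-negative, grouped by their titles. Alignment used Bowtie2 and peak calling MACS2, on mm10, per the submitters' processing notes. The sources used here give no versions, threshold, read filters or Tn5 shift. The authors deposited 1 list of 1-bp summits per library, not pooled, with a score taken as −log10 of a p or q value, which of them not being stated. A list holds no reads or widths, so depth is unknown and no error can be given for a single score. Names of summits carry other replicate numbers than the titles do in both CD93-positive libraries and in CD93-negative replicate 2, and the titles were followed.

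Positions are 1-based. Gene positions came from RefSeq for GRCm38.p6, transcript starts and promoter sequences from its promoter table. All 10 clock genes, 24 other pathway genes and 38 marker genes matched a current symbol. A site was a gene's own where at least 1 of its summits was nearer to that gene than to the end of another. The members and lists were chosen with earlier results of these data known, so counts were described and no test was made. All 10 genes are named, of the other pathway genes those listed in at least 2 libraries. The scripts were tested on simulated data (numpy 2.4.6, pandas 2.3.3, matplotlib 3.10.9; Python 3.11.15). Alternatives were other windows (1000 and 25000 bp, gene ends only), a score of at least 10, equal list lengths, sharing within 100, 500 and 1000 bp, ranks over gene-end summits, and leaving out each library.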

Additional observations from a re-analysis of the deposited data

How the results depend on the processing

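Equal list length, which leaves fewer summits, changed the counts most. With the 711 highest-scoring summits of each longer list the clock genes listed were 0 in CD93-negative replicate 1 and 2 in CD93-negative replicate 2, the other pathway genes 2 and 1, and the difference between the group means for clock genes was -0.5 in place of 5.5 with CD93-positive replicate 1 kept at its 21 summits, and -2 without it. With a score of at least 10, CD93-positive replicate 2 listed 0 clock genes and 1 other pathway gene, and the latter was also 1 within 1000 bp of gene ends. Leaving out 1 library at a time gave differences between the groups of 3.5 to 7.5 genes and 3 to 5 shared sites, with 3 sites without CD93-negative replicate 1 and without CD93-negative replicate 2. Equal lengths of 2755 summits, equal lengths without CD93-positive replicate 1, and a count of only those summits nearer to the clock gene than to another gene's end, were chosen after seeing the data. By that last count CD93-negative replicate 1 listed 8 clock genes in place of 9, without Per3, and the other libraries were unchanged. No paired analysis was possible because the results come from no test and the replicate numbers of the titles do not pair the libraries. Unknown depth limits every statement on a gene without a summit.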
